A study of Mus musculus with 82 samples.

Results

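Skin biopsies taken 2 h after whole-body X-ray exposure to 6 Gy were compared with biopsies taken 2 h after sham treatment. The 8 arrays were chosen by their labels, 4 of dosage 6Gy and 4 of dosage 0Gy at Day 0 (hour 2), out of 82 arrays in the series. All mice were male C57BL/6j. Irradiated mice received photons of a linear accelerator under anesthesia as young adults, and sham mice went through the same handling without radiation. At h2 each mouse had given its first biopsy, a piece of shaved dorsal skin that also holds blood, so that each of the 8 arrays was a different mouse. The study describes 5 animals per group, and the labels name 4 arrays in each of these groups. The sham mice were M001, M002, M004 and M005, and the 6 Gy mice were M016, M017, M019 and M020. Each biopsy was labeled with Cy5 and hybridized with a common mouse reference RNA in Cy3, and the dyes were not swapped. A value below is the log2 ratio of Cy5 over Cy3 of a probe, and a change is the 6 Gy mean minus the sham mean of these ratios. Levels of different genes cannot be set against each other on this scale.

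Ionizing radiation breaks DNA, and the kinase ATM answers by stabilizing the transcription factor p53. p53 in turn induces genes of cell cycle arrest, such as Cdkn1a, of apoptosis, such as Bax and Fas, and its own inhibitor Mdm2, usually within hours. Skin combines an epidermis of dividing and cornifying keratinocytes with hair follicles that cycle between growth and rest, a collagen-rich dermis, fat and a thin sheet of muscle. A biopsy therefore mixes many cell types, and in such bulk RNA fewer cells of a type and less RNA per cell cannot be told apart.

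The 8 arrays fell into sets by scanner. Sham mice M001, M004 and M005 and 6 Gy mouse M017 were read on scanner 1, and sham mouse M002 and 6 Gy mice M016, M019 and M020 on scanner 2, so that scanner and dose were nearly the same division. Scanner model, software version, array design file and scan day changed together among these 8 arrays, and their effects cannot be told apart. M004 and M005 shared a slide, and so did M016 and M019. Over the 30323 probes tested, pairs of arrays from one scanner correlated at 0.960 to 0.983 and pairs from different scanners at 0.842 to 0.884, leaving M002 out. M017 resembled the sham arrays of its own scanner (0.964 to 0.983) more closely than the other 6 Gy arrays (0.870 to 0.884). M002 stood apart from all others, at 0.693 to 0.767. The deposited normalized values no longer showed the scanner division. There M017 lay closest to the other 6 Gy arrays (0.977 to 0.983), and M002 still lay lowest (0.869 to 0.919). These correlations share probes, reference RNA and base composition and are descriptions. The median Cy5 intensity was 48 to 64 on scanner 1 and 87 to 97.5 on scanner 2, and 48.6% of probes in M002 and 51.5 to 63.3% in the other arrays were well above background in Cy5. The 10 basal keratinocyte markers, among them Krt5 and Krt14, were well above background on each of the 8 arrays, as skin should show.

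**Figure D1:**
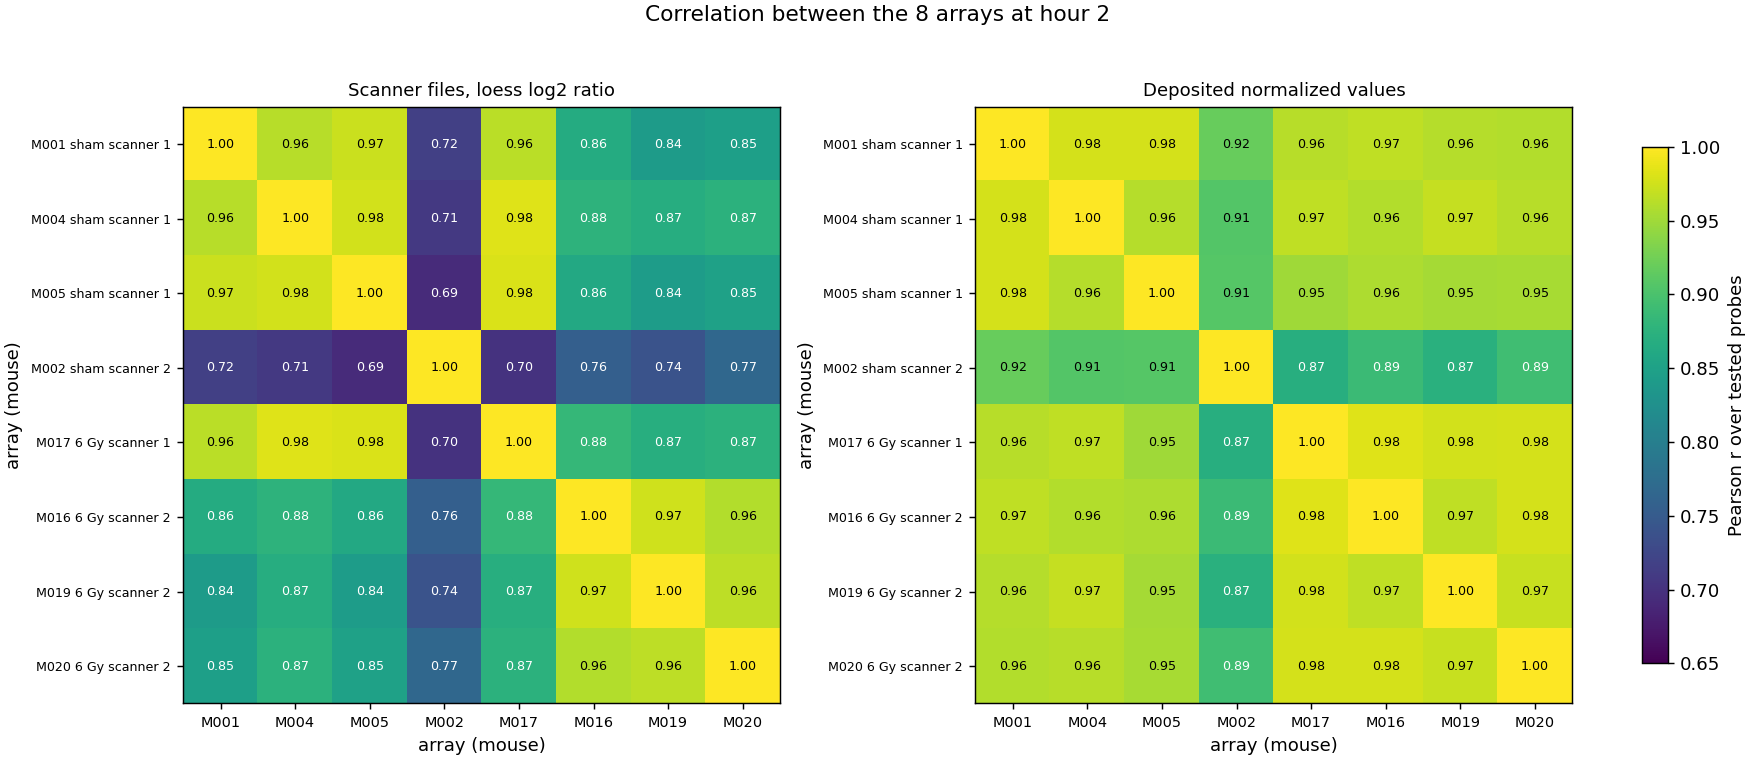
Pearson correlation between each pair of the 8 arrays over tested probes, for log2 ratios from the scanner files (left) and for the deposited normalized values (right), with mice on both axes and the coefficient printed in each cell. On the left M017 groups with the sham arrays of scanner 1 and M002 has the lowest values, from 0.69 to 0.77. On the right M017 groups with the 6 Gy arrays, and M002 is still lowest.

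No gene changed significantly in the scanner files at 6 Gy, h2. Of 30323 probes tested with limma, 0 rose and 0 fell at a Benjamini-Hochberg adjusted p under 0.05 with a 2-fold change (0% called in both directions), and the lowest adjusted p was 0.0698. At an unadjusted p under 0.05 with a 2-fold change, 348 probes were higher (1.15%) and 138 lower (0.455%). With scanner as a block there were again 0 and 0, with 51 higher and 129 lower at unadjusted p, and the lowest adjusted p was 0.109. Within scanner 1, where M017 met 3 sham arrays, 0 rose and 1 fell. Within scanner 2, where 3 irradiated arrays met M002 alone, 805 rose and 1127 fell. Those calls assume that the lone array of a cell varies like the arrays of other groups. Without M017, 54 rose and 31 fell, and without M002, 0 rose and 0 fell. The number of arrays and the scanner division limit what this comparison could detect.

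None of the 32 p53 targets passed the test at h2. All 32 were tested, and their median change was -0.05, against 0.02 over the 15760 genes tested. At unadjusted p under 0.05, 2 of the 32 were higher and 3 lower, where the shares over all genes were 7.04% and 7.39%. The median was -0.08 with scanner as a block, -0.10 within scanner 1 and -0.19 within scanner 2. It was -0.05 in the deposited values, in which none was called at 2-fold either. At an adjusted p under 0.05 with any fold 2 of the 32 were lower and 0 higher there, where 3.27% and 2.17% of all genes were. These were Plk2, a stress-responsive kinase (-0.58, limma adjusted p 0.0188, and 0.0312 with scanner as a block), and Xpc, a sensor of damaged DNA (-0.24, 0.045, and 0.0682 with the block), both without overlap there. In the scanner files they changed by -0.52 and -0.22, with overlap.

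Cdkn1a, which encodes the cell cycle inhibitor p21 and is a standard early target of p53, had a negative change. Its log2 ratio was 0.97, 0.95, 1.43 and 1.15 in sham mice M001, M004, M005 and M002. It was 0.96 in M017 and 0.09, -0.51 and -0.26 in M016, M019 and M020. M017 lay among the sham mice and the other irradiated mice lay below them, so that the groups overlapped. The change was -1.06 (SE 0.45, limma adjusted p 0.326), -0.78 with scanner as a block, -0.16 within scanner 1 and -1.38 within scanner 2. In the deposited values it was -0.62 (SE 0.20, adjusted p 0.057), again with overlap.

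Ccng1, which encodes cyclin G1 and is another direct p53 target, had a positive change. Its values were 0.42, 1.18, 0.44 and -0.65 in M001, M004, M005 and M002, against 1.36, 1.57 and 2.06 in M017, M016 and M019, with no value for M020, whose spot was flagged. Each irradiated mouse with a value lay above each sham mouse, and M002 was lowest. The change was 1.32 (SE 0.46, limma adjusted p 0.28), 0.69 within scanner 1 and 2.46 within scanner 2, and in the deposited values, where M020 had a value, the groups overlapped.

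Mdm2, the ubiquitin ligase that degrades p53, spanned only -1.04 to -0.76 in sham and -1.30 to -1.10 at 6 Gy. The groups did not overlap, and the change was -0.24 (SE 0.19, limma adjusted p 0.57), and in the deposited values it was -0.20 with overlap. Bax, a pore former of apoptosis, changed by 0.18 without a block and by -0.02 with one. Its value in M002, -0.56, was far above the -1.61 to -1.46 of the other sham mice and above all 4 irradiated mice. In the deposited values Bax changed by -0.27 (limma adjusted p 0.127), and the groups did not overlap. Fas, a death receptor, changed by 0.49 (SE 0.19, adjusted p 0.298), by -0.05 within scanner 1 and by 1.20 within scanner 2. Phlda3, an inhibitor of Akt, changed by 0.48 without a block, by 0.10 with one and by -0.25 within scanner 1. Plk3, a kinase of the same family as Plk2, was at 0.52 to 1.83 in sham and at -0.06 to 0.43 at 6 Gy, a change of -0.86 that failed the correction (adjusted p 0.327), and in the deposited values its change was -0.03. Psrc1, a spindle protein, changed by -0.67 (adjusted p 0.346), by -0.41 with scanner as a block, by -0.10 within scanner 1 and by -0.05 with the background correction fitted on all spots. Rrm2b was not well above background on any of the 8 arrays.

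**Figure D2:**
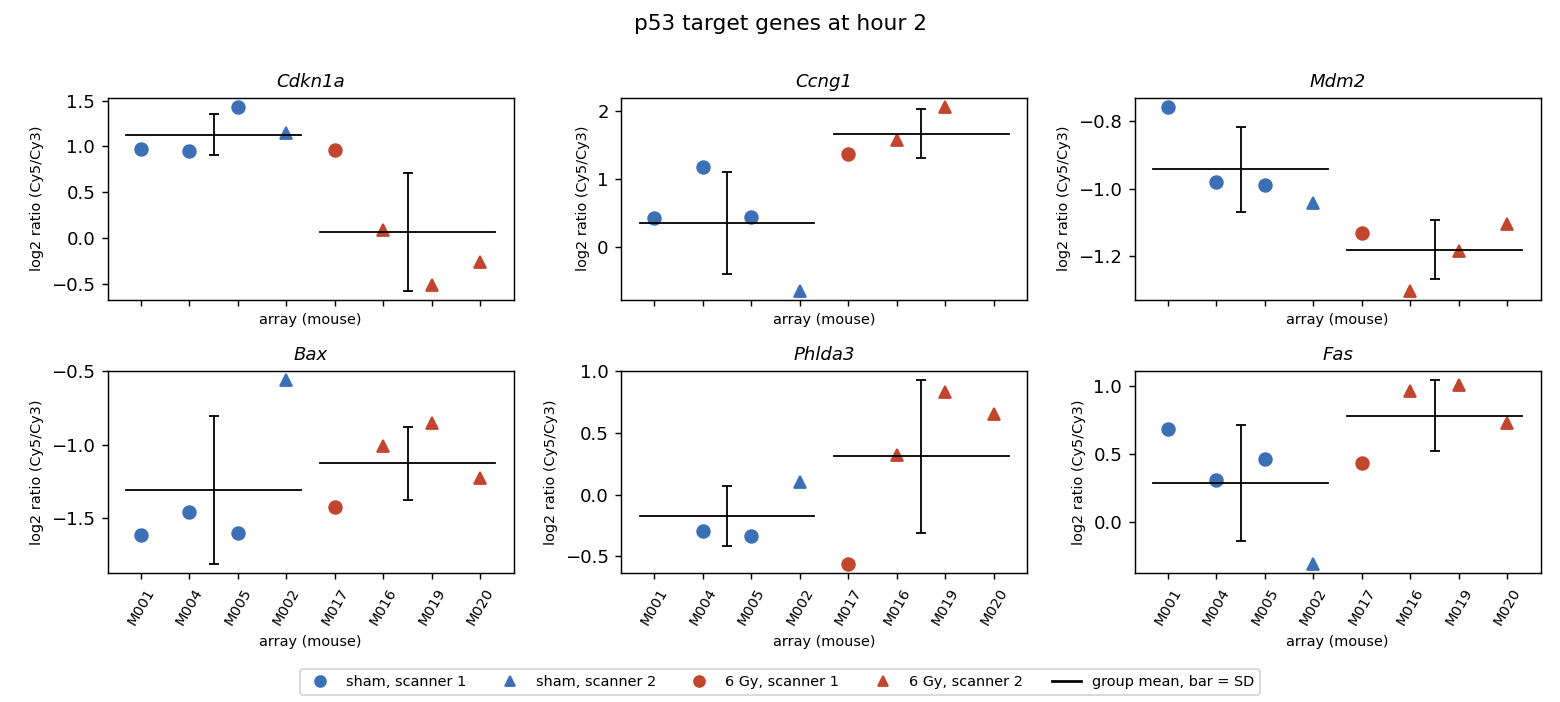
Log2 ratio of Cy5 over Cy3 of 6 p53 target genes on each array (x axis, mouse), with circles for scanner 1, triangles for scanner 2, blue for sham and red for 6 Gy, and group means with SD of 3 or 4 arrays. For Cdkn1a the irradiated mouse M017 lies at 0.96 among the sham mice while the others lie at -0.51 to 0.09. Ccng1 separates the groups, and Bax is highest in sham mouse M002.

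In the other lists of the damage response no gene passed the test either. The 22 tested genes of DNA damage signaling and repair, among them Atm and genes of end joining, had a median change of -0.09, which was 0.18 with the background correction fitted on all spots. H2ax, the histone variant that is phosphorylated beside breaks, had a change of -0.78 (SE 0.30, adjusted p 0.294), from -0.62 in M002 and -1.75 to -1.63 in the other sham mice to -2.34 to -1.89 at 6 Gy, and its change was -0.22 within scanner 1 and -0.33 with overlap in the deposited values. Rad50, part of the complex that binds broken ends, changed by 0.70, by 0.19 within scanner 1 and by 0.02 in the deposited values. The 24 genes of mitosis and S phase had a median of -0.13 (0.40 with the correction fitted on all spots), with 0 called. Of these 17 were below 0 and 1 was lower at unadjusted p under 0.05, against 7536 of 15760 and 7.39% of all genes. The 13 genes of oxidative stress had a median of -0.23, which was -0.05 with scanner as a block and 0.04 within scanner 1. The 13 heat shock genes had a median of -0.03, which was -0.51 within scanner 2 and -0.64 with median centering. In both lists 0 genes were called.

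Immediate early genes, which answer stress and growth signals within minutes, had a median of -0.29 over 18 genes, with 0 called. At unadjusted p under 0.05, 3 of the 18 were lower, against 7.39% of all genes. Myc was at -0.12, -0.55, -0.36 and -1.39 in M001, M004, M005 and M002, at -0.85 in M017, and at -1.78, -2.13 and -2.04 in M016, M019 and M020. The mice of scanner 2 were lower than those of scanner 1 whatever their dose. The change of Myc was -1.10 (SE 0.36, limma adjusted p 0.279), and -0.48 with scanner as a block. Zfp36, which destabilizes cytokine mRNAs, showed the same division, at 1.23 to 1.76 in sham mice of scanner 1, 0.81 in M017 and -1.02 to -0.20 in the 3 irradiated mice of scanner 2, with M002 at -0.39. In the deposited values the change of Zfp36 was 0.08 and the median of the immediate early genes was 0.27. The sign of the list's median thus differed between the scanner files and the deposited values, and the cause was not tested.

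The small heat shock protein gene Hspb1 was at 3.36 to 4.64 in sham and at 2.79 to 3.11 in the 3 irradiated mice with a value, the spot of M017 being flagged. Its change was -1.25 (SE 0.43, limma adjusted p 0.28), -1.03 with scanner as a block, -0.44 within scanner 2 and -0.28 in the deposited values, and scanner 1 alone gave no value. Hspa1b, an inducible Hsp70 gene, changed by -0.85 (adjusted p 0.327) and also did not overlap, at 2.46 to 3.06 against 1.33 to 2.25, while its deposited change was -0.41 with overlap. Hspa1b has a near-identical neighboring copy whose RNA its probe may also bind.

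Genes whose groups did not overlap were counted next. In 826 of 15760 genes (5.24%) all irradiated mice lay above all sham mice, and in 687 (4.36%) below. Requiring unadjusted p under 0.05 and one direction with scanner as a block and within both scanners left 326 genes above (2.07%) and 326 below (2.07%). The largest of each direction are described here by their values, since they were chosen by them and none was called.

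Asb5 and Asb11 (muscle-expressed ubiquitin ligase adaptors), Trim63 (the muscle ubiquitin ligase MuRF1), Tnmd (the tendon glycoprotein tenomodulin) and Aspn (the matrix proteoglycan asporin) were among the largest positive changes, at 1.78, 1.73, 1.69, 1.69 and 1.73. Their limma adjusted p ranged from 0.28 to 0.345. Asb5 was at 0.03, 0.69, 0.08 and -0.22 in M001, M004, M005 and M002, at 0.88 in M017 and at 2.35, 2.20 and 2.28 in M016, M019 and M020. M017 lay just above the highest sham mouse. Within scanner 1 the change of Asb5 was 0.61, of Tnmd 0.64, of Trim63 0.81, of Aspn 0.45 and of Asb11 0.21. With the background correction fitted on all spots, the setting run first, the changes of Asb5, Asb11, Trim63, Tnmd and Aspn were 1.04, 0.43, 0.53, 0.46 and 0.62. The deposited values gave Asb11, Trim63 and Aspn changes of 0.81, 1.00 and 1.01, with overlap for Asb11 and Trim63. The 15 markers of skeletal muscle had a median change of 0.23, with 0 called. It was 0.04 with scanner as a block, -0.11 within scanner 1, 0.97 within scanner 2 and -0.23 with median centering. Of the 15 markers 14 were above 0, against 8224 of 15760 genes. Their per-array medians were 5.47 to 5.91 in sham, 5.60 in M017 and 6.27 to 6.79 in the other irradiated mice. In the deposited values the median change was 0.81 (0.74 with scanner as a block), and the per-array medians of 6.39 to 7.32 at 6 Gy all lay above the 5.26 to 6.37 of sham. The part of muscle content in these genes was not tested.

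Hrnr, which encodes hornerin of the cornified epidermis, had the largest change by this rule. It was at 4.66, 4.23, 4.60 and 2.79 in M001, M004, M005 and M002 and at 4.84, 6.76, 6.38 and 5.67 in M017, M016, M019 and M020. M002 was lowest and M017 just above the sham range. The change was 1.84 (SE 0.71, limma adjusted p 0.301), 1.17 with scanner as a block, 0.34 within scanner 1, 3.48 within scanner 2 and 0.51 with the correction fitted on all spots. The other large positive changes were Prx, a myelin gene of peripheral nerve (1.68), Ddit4l, an inhibitor of mTOR signaling (1.67), Ifi27l2a, an interferon-induced gene (1.67, without M020, whose spot was flagged), and Ptgfr, the prostaglandin F receptor (1.51). With the correction fitted on all spots these were 0.90, 0.58, 1.71 and 0.56. The deposited changes were 0.44, 1.03, 1.25 and 0.83, with overlap for Prx alone of these.

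Cdh3, the gene of P-cadherin, was among the largest negative changes. It was at 1.83, 1.89, 1.88 and 3.50 in M001, M004, M005 and M002, at 1.37 in M017 and at 0.47, 0.52 and 0.77 in M016, M019 and M020. M002 was highest, and M017 lay between the other irradiated mice and the sham mice. The change was -1.49 (SE 0.42, limma adjusted p 0.279), -0.50 within scanner 1 and -0.58 in the deposited values, where the groups did not overlap either. Cldn3, a claudin of tight junctions, changed by -1.47 without a block and by -0.45 within scanner 1. Large2, a glycosyltransferase of dystroglycan, changed by -1.24 (adjusted p 0.279) and passed the test without M017 (0.049), the only irradiated mouse of scanner 1. With scanner as a block its change was -0.78 (0.667), and within scanner 1 it was -0.12. Ptprf, a receptor phosphatase of cell contacts, Irx4, a homeobox gene, and Mfsd2a, a lipid transporter, changed by -1.25, -1.32 and -1.32. None of these was called in the deposited values, where Cldn3, Large2, Ptprf, Irx4 and Mfsd2a changed by -0.45, -0.47, -0.11, -0.30 and -0.52, with overlap for each of these but Cldn3.

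In the scanner files the negative changes of hair shaft genes rested on 1 sham mouse. Krtap31-1, which encodes a keratin-associated protein of hair, was at 0.26, 0.33 and 0.34 in M001, M004 and M005, at 6.36 in M002, and at -0.04 to 0.25 in the irradiated mice. The change was -1.70 with M002 and -0.19 without it. The deposited values gave 1.09, 1.28 and 1.37 in M001, M004 and M005, 3.52 in M002 and 0.44 to 0.98 in the irradiated mice, with the groups apart. Krtap31-2 and Mab21l4 had the same shape, at 4.51 and 4.54 in M002 and no higher than 0.29 and 0.99 in any other mouse. Keratin-associated proteins are a large family of similar genes, and a probe may bind more than 1 of them.

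All 16 tested markers of the growing hair follicle had a negative change with M002 in the fit. Over all genes, 7536 of 15760 had a negative change. The median of the list was -1.10 and 0 were called. At unadjusted p under 0.05, 8 of the 16 were lower, against 7.39% of all genes. The median log2 ratio of the list was 5.92 in M002 and between 0.09 and 0.87 in each of the other 7 mice. All 16 markers were well above background in M002, and 7 to 15 in the others. Without M002 the median change was 0.20, within scanner 1 it was -0.06 and within scanner 2 it was -5.06. The deposited values gave -1.26 (-1.30 with scanner as a block). Their per-array medians were 1.20, 1.00, 1.03 and 3.22 in M001, M004, M005 and M002 and 0.01 to 0.91 in the irradiated mice. The other sham mice thus also lay above the irradiated mice there. At a limma adjusted p under 0.05 with any fold, 5 of the 16 were lower in the deposited values and 0 higher. Of all genes 3.27% were lower and 2.17% higher by that measure. In the scanner files Msx2, a homeobox gene of the hair matrix, was at 1.52, 1.51 and 1.03 in M001, M004 and M005 and 6.63 in M002. It was at 1.18, 0.73, 0.48 and 0.92 in M017, M016, M019 and M020. Hoxc13, which drives hair keratin genes, was at 2.90 in M002 and between -0.43 and 0.20 elsewhere, and Dlx3, another homeobox gene of the follicle, at 3.84 in M002 and between 0.08 and 0.22 elsewhere, M005 having no value. The erythroid list was also highest in M002, at a median of 2.79 against 0.39 to 1.15, with the red cell anion exchanger gene Slc4a1 at 3.97 there and between -0.28 and 0.32 elsewhere. Hba-a1, a hemoglobin gene, was at 4.66 in M002, the lowest of the 7 mice with a value.

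**Figure D3:**
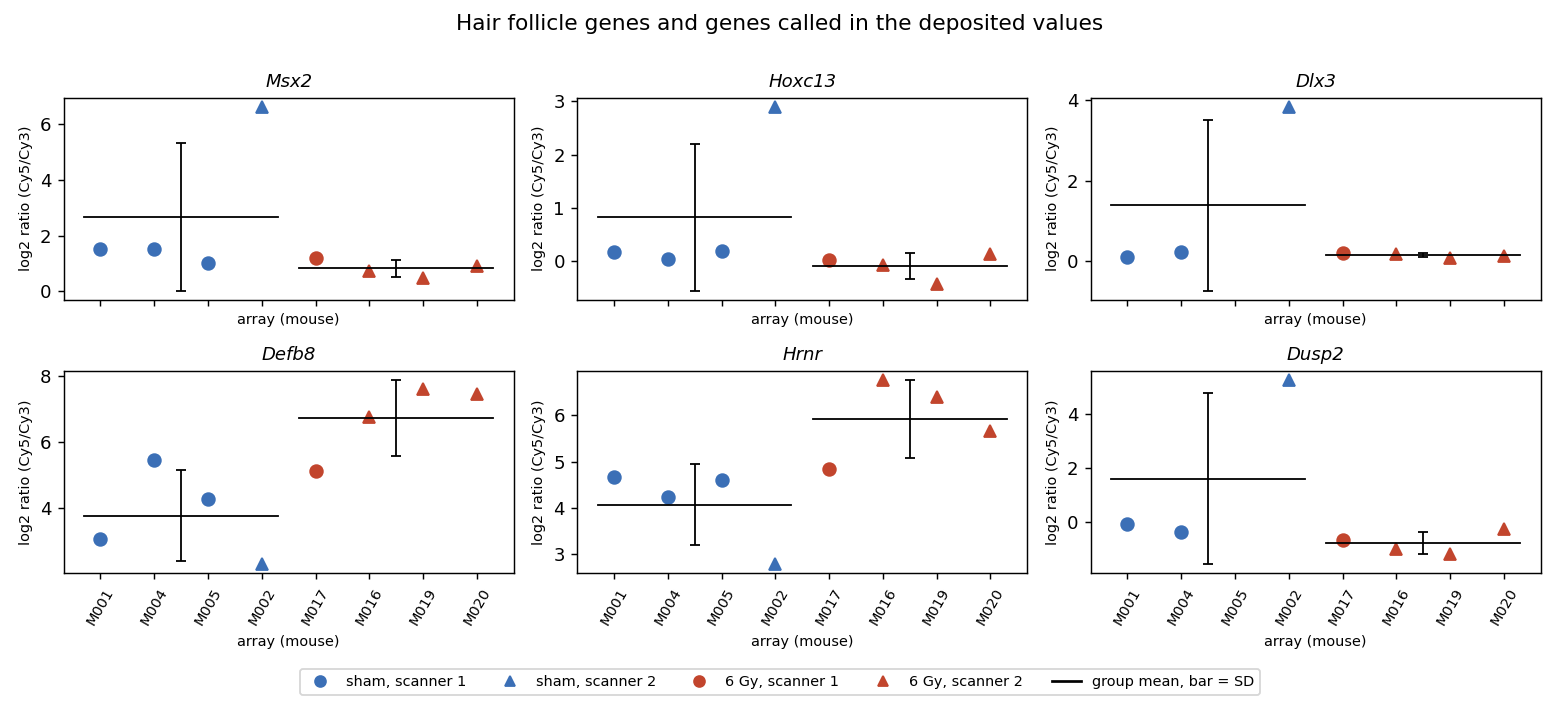
Log2 ratio of Cy5 over Cy3 of 6 genes on each array (x axis, mouse), with circles for scanner 1, triangles for scanner 2, blue for sham and red for 6 Gy, and group means with SD of 3 or 4 arrays. Msx2, Hoxc13, Dlx3 and Dusp2 are high in sham mouse M002 alone, at 6.63, 2.90, 3.84 and 5.24. For Defb8 and Hrnr the 3 irradiated mice of scanner 2 lie highest and M002 lowest.

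Several lists of dermal and immune cells had medians above 0 with 0 genes called. All 10 macrophage and monocyte markers were above 0, against 8224 of 15760 genes, with a median change of 0.96. At unadjusted p under 0.05, 3 of the 10 were higher, against 7.04% of all genes. The median was 0.70 with scanner as a block, 0.34 within scanner 1, 0.34 in the deposited values, 0.38 with median centering and 0.21 with the correction fitted on all spots. Against the same sham arrays the median was 0.63 at 1 Gy, 0.79 at 3 Gy and -0.87 at 20 Gy. Ccr2, the receptor that brings monocytes into tissue, was at 1.33 to 1.49 in sham, 1.92 in M017 and 2.32 to 3.40 in the other irradiated mice, a change of 1.18 (SE 0.53, limma adjusted p 0.343) that was 0.25 with overlap in the deposited values. Adgre1, the gene of a macrophage surface receptor, changed by 1.03 (adjusted p 0.349), with M002 lowest at 0.06, by 0.40 within scanner 1 and by 0.17 with overlap in the deposited values.

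The interferon response list had a median of 0.66. Of its 13 genes 12 were above 0 and 2 higher at unadjusted p, against 8224 of 15760 and 7.04% of all genes. In 7 of the 13 all irradiated mice lay above all sham mice, against 5.24% of all genes. The median was 0.16 within scanner 1, 0.27 in the deposited values and 0.07 with median centering. Ifit3, an interferon-induced antiviral gene, was at 0.48, 0.50, 0.29 and -0.31 in M001, M004, M005 and M002 and at 0.74, 1.72, 1.81 and 1.25 in M017, M016, M019 and M020. The groups did not overlap, and the change was 1.14 (SE 0.42, limma adjusted p 0.287), 0.32 within scanner 1 and 1.90 within scanner 2. In the deposited values it was 0.75 (adjusted p 0.162), also without overlap. Ifit1, of the same family, changed by 1.05, by 0.07 within scanner 1 and by 0.61 with overlap in the deposited values, and was well above background in 2 of 4 sham and 4 of 4 irradiated mice.

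Fibroblast and matrix genes had a median of 0.61, where the 2 tested probes of Sparc, a matrix protein gene, disagreed at -1.44 and 0.53, mast cell genes 0.57, adipocyte genes 0.63 and endothelial genes 0.45. The fibroblast median was 0.72 with scanner as a block, 0.42 within scanner 1 and 0.27 in the deposited values. It was 0.23 without M002 and 0.07 with median centering. At unadjusted p under 0.05, 4 of the 12 fibroblast genes were higher, against 7.04% of all genes. In 4 of the 12 all irradiated mice lay above all sham mice, against 5.24% of all genes. The mast cell median was 0.29 with scanner as a block and 0.01 within scanner 1. With scanner as a block the adipocyte and endothelial medians were 0.02 and 0.20, within scanner 1 they were -0.08 and -0.02, and with the correction fitted on all spots the endothelial median was -0.24. Emcn and Pecam1, both of endothelium, changed by 1.36 and 0.87, by 0.34 and 0.14 within scanner 1 and by 0.39 and 0.14 in the deposited values. Basal keratinocyte markers had a median of -0.32 in the scanner files and 0.28 in the deposited values. T cell, B cell, neutrophil and platelet lists had medians of 0.09, 0.20, 0.16 and 0.15. With scanner as a block these were 0.13, 0.07, 0.01 and 0.08, and in the deposited values 0.02, -0.03, 0.05 and 0.10. Within scanner 1 none was above 0.01. Of the tested genes, 2 to 6 of 10 neutrophil and 1 to 4 of 6 B cell genes were well above background on an array. The clock gene Nr1d2 changed by 0.64 (adjusted p 0.338), with all irradiated mice above all sham mice, and by 0.31 within scanner 1. Its deposited values gave a change of 0.66 (limma adjusted p 0.0263, and 0.0426 with scanner as a block), also without overlap and under 2-fold. The clock list had a median of 0.14, which was -0.17 without M002, -0.34 with median centering and -0.02 with the correction fitted on all spots.

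**Figure D4:**
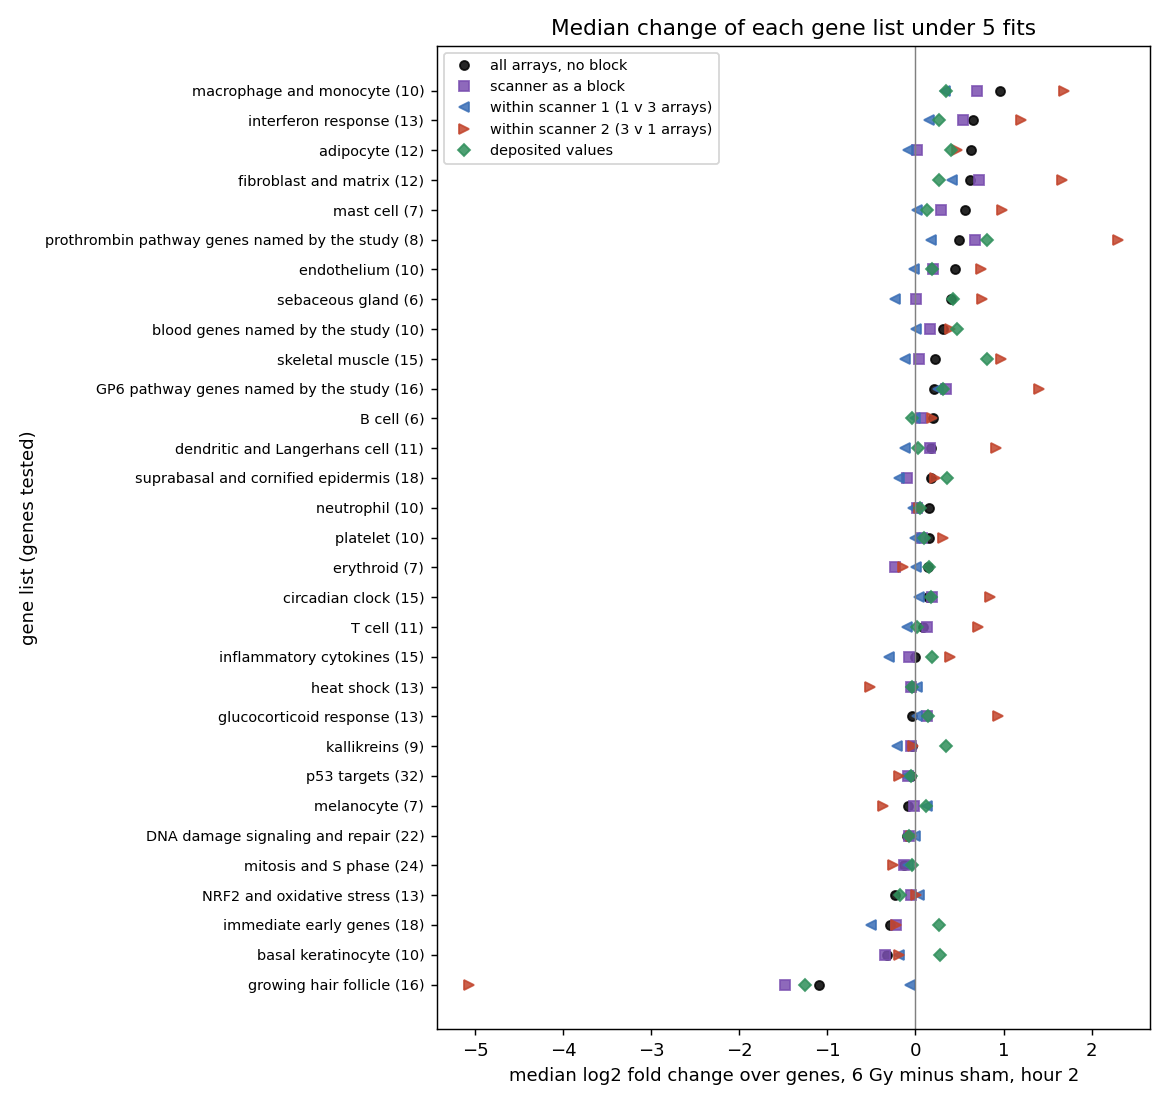
Median log2 fold change (x axis, 6 Gy minus sham, h2) of each of 31 gene lists (y axis, with the number of genes tested), with a symbol for each of 5 fits. The growing hair follicle list lies lowest, at -1.10 without a block and at -5.06 within scanner 2, but at -0.06 within scanner 1. The fit within scanner 2, which rests on sham mouse M002 alone, is farthest from 0 for most lists.

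The pathways that the study stressed included GP6 signaling, through which platelets answer collagen, and intrinsic prothrombin activation. It also named dendritic cell maturation and, after sublethal doses, IL-6 signaling, for which no list was made here. The 11 markers of dendritic and Langerhans cells, which are not that pathway, had a median change of 0.18 with 0 called. It was 0.17 with scanner as a block, -0.11 within scanner 1 and 0.03 in the deposited values. The GP6 and prothrombin genes were chosen by the study on these samples and are not independent evidence of a direction. Of 16 tested GP6 genes 0 passed the test. At unadjusted p under 0.05, 2 were higher and 0 lower, against 7.04% and 7.39% of all genes. The median change was 0.21, and it was 0.35 with scanner as a block, 0.25 within scanner 1 and 1.41 within scanner 2. It was -0.26 without M002, -0.10 without M017 and -0.33 with median centering. In the deposited values it was 0.31 (0.33 with scanner as a block). The 8 prothrombin pathway genes, which share collagens with the former, had a median of 0.50, with 0 called. Their per-array median was 2.17 in M002 and 4.24 to 5.20 in the other 7 mice, and without M002 the median change was -0.10. The deposited values gave this list a median change of 0.81, also with scanner as a block, and per-array medians of 3.82, 3.53, 3.95 and 2.85 in M001, M004, M005 and M002 and of 4.54, 4.59, 4.33 and 4.43 in M017, M016, M019 and M020. All irradiated mice lay above all sham mice there, with M002 lowest.

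Col2a1, a fibrillar collagen of both lists, was at 3.89, 3.18, 3.72 and 2.17 in M001, M004, M005 and M002 and at 3.28, 5.24, 4.57 and 4.66 in M017, M016, M019 and M020. M017 lay inside the sham range and M002 below it. The change was 1.20 (SE 0.57, limma adjusted p 0.362), 1.23 with scanner as a block and -0.32 within scanner 1. Col4a4, of basement membranes, changed by 0.42 (adjusted p 0.291) without overlap, at -0.60 to -0.07 in sham and 0.12 to 0.17 at 6 Gy, and by 0.17 with overlap in the deposited values. Col1a1, the main collagen of dermis, was at 1.87 in M002 and at 3.90 to 5.44 elsewhere, and its change was 0.22 with M002 and -0.58 without it. In the deposited values its change was also positive, with an adjusted p not under 0.05. The study lists Col1a1 as higher at 6 Gy, h2. Klk8, an epidermal protease, changed by 1.02 (adjusted p 0.371), with M002 lowest at 2.65, by -0.22 within scanner 1, and by 0.91 (0.0526) without overlap in the deposited values.

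Of the blood genes named by the study, 10 of 17 were tested, 0 passed the test, and the median change was 0.31. It was 0.14 without M002, 0.17 with scanner as a block, 0.01 within scanner 1 and -0.16 with median centering. In the deposited values it was 0.47 (0.44 with scanner as a block). The per-array medians there were 2.33 to 2.69 at 6 Gy, all above the 1.13 to 2.25 of sham, with M002 lowest. The values of single genes that follow are from the scanner files. Hba-a1 was at 4.66 to 4.83 in sham and 4.83 to 4.98 in the 3 irradiated mice with a value, a change of 0.14, and Hbb-bt changed by 0.22 without a block and by -0.30 with one. Pf4, a platelet chemokine, changed by 0.82 with M002 at -1.54, and by 0.03 without M002. Globin genes have near-identical copies, so that these probes may bind more than 1 RNA. Plg was not well above background on any of the 8 arrays.

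The deposited normalized values gave calls where the scanner files gave none. Groups did not overlap there in 1072 genes with 6 Gy above (6.8%) and 1430 with 6 Gy below (9.07%). In the same model 94 probes rose (0.31%) and 15 fell (0.0495%), and the lowest adjusted p was 0.000242. As genes these were 71 (0.451%) and 13 (0.0825%). In the scanner files 92 of the 94 and 14 of the 15 had the same sign, with medians of 1.05 and -1.09. Within scanner 1 of the scanner files the medians were 0.08 and -0.02, and 60 of 91 and 8 of 14 measured there had the same sign. With scanner as a block 58 rose and 12 fell in the deposited values, 55 and 10 of them from the first set. Without M002 8 rose and 1 fell, of which 6 and 1 were from that set, and without M017 16 rose and 2 fell. Each deposited column of a scanner 2 array matched its own scanner file best among 82 arrays (r 0.958 to 0.976), while those of scanner 1 ranked 8 to 23 (r 0.907 to 0.930). After both were centered by scanner, 7 of 8 matched their own array best and M017 ranked 3.

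Defb8, a beta-defensin, an antimicrobial peptide of epithelia, rose most in the deposited values. It was at 1.97, 2.97, 1.73 and 2.03 in M001, M004, M005 and M002 and at 6.45, 4.73, 6.17 and 6.16 in M017, M016, M019 and M020. All irradiated mice lay above all sham mice, M017 included, and the rise was 3.70 (SE 0.68, limma adjusted p 0.00117, and 0.00279 with scanner as a block). In the scanner files the same probe was at 3.05, 5.45, 4.28 and 2.31 in sham and at 5.10, 6.74, 7.60 and 7.44 at 6 Gy, in the same orders of mice. M004 there lay above M017, and the change was 2.95 (SE 1.04, adjusted p 0.281), 0.85 within scanner 1 and 4.94 within scanner 2. Defensins are a family of similar genes, and the probe may bind others. In the scanner files too, Defb8 had the largest positive change of the 15760 genes, but it was not called there.

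Tceal7 (2.10, limma adjusted p 0.00468), Hrnr (1.94, 0.0173), Hspb3, a small heat shock protein of muscle (1.83, 0.0151), and Myoz2, of the muscle Z-disc (1.81, 0.0125), followed as the next largest rises in the deposited values. Their changes in the scanner files were 1.53, 1.84, 1.40 and 1.46, and within scanner 1 they were 0.21, 0.34, 0.04 and 0.09. Col2a1 (1.21, adjusted p 0.0163) and the muscle gene Ttn, which encodes titin (1.60, 0.0364), were also called. Tnmd rose by 1.46 (0.0315), but Asb5 missed the threshold at 1.31 (0.0587). Against 0.451% of all genes called higher and 0.0825% lower, the 4 genes of the lists that were called were 1 of the 16 GP6 genes and of the 8 prothrombin genes, 1 of 15 muscle genes, 1 of 12 fibroblast genes (Dcn, the proteoglycan decorin, 1.28, adjusted p 0.0214; named after its values were seen) and 1 of 16 hair follicle genes, the last lower.

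The largest falls in the deposited values were Chac1, which degrades glutathione (-1.77, limma adjusted p 0.0102), Krtap26-1 (-1.68, 0.0448), Dusp2, a phosphatase of MAP kinases (-1.68, 0.00622), Krtap15 (adjusted p 0.0272) and Msx2 (-1.29, 0.0472). In the scanner files Krtap26-1 was at 8.24 in M002 and between -0.30 and 0.29 elsewhere, and Dusp2 at 5.24 in M002 and between -1.19 and -0.05 elsewhere, M005 having no value. Krtap15 was well above background in 1 sham mouse and no irradiated mouse, so that its size has only a bound from the scanner files. By Cy5 signal the sham mean was at least 2.59-fold higher than at 6 Gy. That bound was not tested, and the change of the log2 ratio had a limma adjusted p of 0.348. The sham mean rested on M002, at a log2 ratio of 6.55 against -0.12 to 0.22 in the other sham mice. Without M002 the measured change of the log2 ratio was -0.01. In the deposited values the other sham mice also lay above the irradiated mice, with Dusp2 at 0.67 to 0.80 in M001, M004 and M005, 2.75 in M002 and -0.66 to -0.18 at 6 Gy. Chac1 had a change of 0.03 in the scanner files, where 3 of its 8 spots were flagged and 2 sham and 3 irradiated mice had a value. In these 5 mice the deposited values were -0.67 and -0.32 in M001 and M004 and -1.80, -0.92 and -1.82 in M016, M019 and M020, so that the sources also differed where both had values.

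Against the other doses at h2, SDTGs were found in the scanner files only between 6 Gy and 20 Gy. The contrasts with 1 Gy (4 arrays) and 3 Gy (5 arrays) gave 0 and 0 SDTGs each (0% called), with or without scanner as a block, and 43 higher and 10 lower, and 5 higher and 0 lower, at unadjusted p with a 2-fold change. The deposited values gave 7 probes higher and 3 lower than at 1 Gy, and 1 higher and 4 lower than at 3 Gy. At 20 Gy (4 arrays, all of scanner 1 and of 1 slide, whose effect cannot be told apart from that of dose), 1990 probes were higher than at 6 Gy (6.56%) and 2353 lower (7.76%), and 2516 (8.3%) and 2316 (7.64%) with scanner as a block. Of the p53 targets 5 were higher and 7 lower at 20 Gy than at 6 Gy, and 8 and 6 with scanner as a block. Cdkn1a was higher by 1.70 (limma adjusted p 0.00216), and Ccng1 and Fas were lower by the fit, with differences of -2.19 (0.000155) and -1.08 (7.87e-06). Of the 6 Gy mice, M017 of scanner 1 was at 0.96 for Cdkn1a and the others, of scanner 2, at -0.51 to 0.09. Against sham at h2, the changes at 20 Gy were 0.64 for Cdkn1a (limma adjusted p 0.282), -0.87 for Ccng1 (0.107) and -0.59 for Fas (0.0123). Of 10 macrophage markers 9 were lower at 20 Gy than at 6 Gy, with a median difference of -1.85. With scanner as a block 6 were lower and the median was -1.45. Against the same 4 sham arrays, 1 Gy had 4 higher and 1 lower without a block and 0 and 0 with scanner as a block. At 3 Gy both fits gave 0 and 0, and at 20 Gy they gave 2311 and 1999, and 2588 and 2164. The deposited values gave 131 and 16 at 1 Gy, 58 and 11 at 3 Gy, and 304 and 673 at 20 Gy. Since these comparisons share their sham arrays, the hair follicle medians of -1.10, -1.22, -1.14 and -1.72 at 6, 1, 3 and 20 Gy all hold M002.

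No probe was called for a difference between h2 and d4 in the change from sham at 6 Gy. The contrast gave 0 and 0 SDTGs (0%) without a block, with scanner as a block and in the deposited values, and 234 and 106 probes at unadjusted p with a 2-fold change. Of these mice, 7 had an array at both times, and with the mouse as a random replicate block the contrast again gave 0 and 0 (253 and 116 at unadjusted p, lowest limma adjusted p 0.227). At d4, 6 Gy had 18 SDTGs higher (0.0594%) and 1 lower (0.0033%) than its own sham arrays. These were 11 and 2 with scanner as a block, 22 and 1 with the block for mouse, and 191 and 19 in the deposited values. Of the 13 interferon response genes 4 were called higher at d4 (3 with scanner as a block), with a median of 1.33, and of the 32 p53 targets 1 was called higher, with a median of 0.39. At h2 these medians were 0.66 and -0.05. A probe that fails this test has not been shown to behave alike at both times.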

How the data were processed

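Two-color arrays measured biopsy RNA in Cy5 against a reference RNA in Cy3. The authors scanned and extracted the arrays with Agilent Feature Extraction, 10.10.1.1 or 11.0.1.1 per the file headers, and deposited the median pixel intensity of each spot and its background. They also deposited a log10 ratio per spot, Cy5 over Cy3, made by the scanner software, and a table of normalized log2 values whose steps are not given in the sources used here. The direction and log scale of that table followed the scanner values of its own arrays, and its median per array lay between 0.0149 and 0.0307.

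From the intensities, background was corrected by normexp (offset 50) and log2 ratios were normalized by loess within arrays, with limma 3.58.1 in R 4.3.3 (with the packages statmod 1.5.0 and data.table, version 1.17.8). Median intensities took the place of the mean intensities named in the design. Normexp was first fitted on all spots, and in 57 of 164 channels the fitted background SD then passed 20 (highest 5182). It was refitted on spots without outlier flags, where the highest SD was 3.00. This change was made after results of the first fit had been seen and was written down after the first count of the second fit was known; both counts were 0. Control spots and spots flagged for outlying pixels or background were left out (125075 values, 3.52%), and spots of a probe were averaged. Symbols came from a RefSeq gene table (GRCm38.p6) through the accession, for 27572 of 41174 probes; the 2 array designs differed in accession for 8868 probes and in symbol for 19. A gene was represented by its probe of highest mean intensity.

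All 82 arrays were fitted with a mean for each of 23 groups (lmFit, eBayes). Probes were called SDTGs (the study's term for significantly changed genes) at an adjusted p under 0.05 by Benjamini-Hochberg with at least a 2-fold change. Mice were biopsied repeatedly, and the block for mouse is given under the dependence on processing. Gene-wise tests were tested on simulated data first. Named genes were the members of the lists of p53 targets and of the study's own genes, from each other list the SDTGs or the 2 of lowest p, the 10 largest rises and falls with unadjusted p under 0.05, no overlap and one sign in the blocked fit and within both scanners, and the 5 largest rises and falls called in the deposited values; the genes given with values and drawn were picked from these after their values were seen. The comparison and the lists were chosen with earlier results of these data known. One gene that the rule selects is not reported here.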

Additional observations from a re-analysis of the deposited data

Results flagged for a closer look

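Of 169 sets of 4 arrays checked, 28 held an array whose gap to the others was wide for a set of this size. Chance gives about 1 in 20 for independent sets not chosen by their values. These sets share 8 arrays and many genes were chosen for their differences, so that this rate is not the number to expect here. Sham mouse M002 made 18 of them, the 6 Gy mouse M017 made 3. M002 was high for Krtap26-1 (8.24), Msx2 (6.63), Krtap15 (6.55), Krtap31-1 (6.36), Mab21l4 (4.54), Cldn3 (4.38), Slc4a1 (3.97), Cdh3 (3.50), Hoxc13 (2.90), Rad50 (-0.44), Bax (-0.559) and H2ax (-0.616), and low for Klk8 (2.65) and Nr1d2 (0.264). Among the medians of lists it was high for the growing hair follicle (5.92) and the erythroid list (2.79), and stood apart for the prothrombin pathway (2.17) and neutrophils (0.174). M017 was low within 6 Gy for Asb5 (0.881) and Ddit4l (4.30) and high for Ptprf (2.87), each time on the side of the sham mice. The remaining cases were Ptprf in M001 (3.43), Emcn in M004 (2.42), Krtap15 in M019 (0.0783), the skeletal muscle list in M004 (5.91), the p53 targets in M019 (-0.492), and the growing hair follicle (0.871) and melanocyte (1.30) lists in M020.

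The 20 Gy arrays differed from the 6 Gy arrays at h2 by the test of that difference, with 1990 probes higher and 2353 lower at 20 Gy. All 20 Gy arrays of h2 were on scanner 1 and 3 of 4 arrays of 6 Gy on scanner 2, and the counts with scanner as a block were 2516 and 2316.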

How the results depend on the processing

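The result of 0 probes higher and 0 lower was also found with scanner as a block, with only the 8 arrays, with the slide as a random block, with median centering, with the scanner software's log ratio, with Cy5 alone, without background correction, with probes above background on all 8 arrays, and with the 2 settings chosen after seeing the data (normexp fitted on all spots, background outlier spots kept). It was 0 and 1 within scanner 1 and without the filter, 1 and 2 with scan day as a block, 805 and 1127 within scanner 2, and 94 and 15 (58 and 12 with scanner as a block) in the deposited values. Leaving out 1 array gave 0 to 54 higher and 0 to 31 lower, the highest counts coming without M017. Median centering moved the median of all probes to -0.22 and the scanner software's ratio moved it to -0.10, and at unadjusted p with a 2-fold change they gave 48 higher and 1329 lower, and 795 and 1250. The other counts at that threshold ran from 1 (within scanner 1) to 1677 (within scanner 2) higher and from 10 to 1424 lower. The cause of these differences was not tested. Of the genes of the lists, 57 of 371 were called within scanner 2 (15.4%, against 9.13% of all genes), 4 of 389 in the deposited values (1.03% against 0.533%) and 2 of 389 with scanner as a block there (0.514% against 0.368%).

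With the mouse as a random replicate block (correlation 0.110), 0 probes were higher and 0 lower in the scanner files, and 96 and 12 in the deposited values. In the contrasts with 1 Gy and 3 Gy and between h2 and d4 this block, chosen after seeing the data there, also gave 0 and 0, and for 20 Gy against 6 Gy it gave 1981 and 2326. The numbers of mice do not pair sham with irradiated arrays. The correlation for the slide as a random block was 0.427. With that block 153 probes were higher and 123 lower at unadjusted p with a 2-fold change. The main fit treats arrays of 1 slide as independent, and the deposited values were not fitted with the slide block.

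The 94 and 15 calls of the deposited values became 58 and 12 with scanner as a block, 0 and 0 within scanner 1, 168 and 317 within scanner 2, and 106 and 4 with only the 8 arrays. Leaving out 1 array gave 8 to 135 higher and 1 to 42 lower, the lowest without M002 (8 and 1) and M017 (16 and 2). The lower calls were 30, 42 and 32 without M001, M004 and M005, and without M016 and M020 58 and 58 were higher and 7 and 9 lower. These alternatives of the deposited values were chosen after seeing the data. In the contrasts of doses the deposited values gave 7 and 3 against 1 Gy, 1 and 4 against 3 Gy, and 336 and 1194 for 20 Gy against 6 Gy.

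Of the 142 genes that the rule names, 35 of the 138 measured changed sign within scanner 1, 13 with scanner as a block, 12 of 137 within scanner 2, 28 with median centering, 16 with normexp fitted on all spots and 24 in the deposited values. The genes that follow are only those given with values in the report. Within scanner 1 those that changed sign were Col2a1 (-0.32), Phlda3 (-0.25), Klk8 (-0.22), Ttn (-0.11), Hbb-bt (-0.0955), Fas (-0.0466), Krtap26-1 (0.00797), Dlx3 (0.0333) and Slc4a1 (0.11). With scanner as a block they were Hbb-bt (-0.30) and Bax (-0.0216), within scanner 2 Bax (-0.47), and with scan day as a block Bax (-0.11) and Hbb-bt (-0.10). With median centering they were Chac1 (-1.12), Bax (-0.43), Hbb-bt (-0.35), Hba-a1 (-0.34), Col1a1 (-0.23), Col4a4 (-0.20) and Fas (-0.11), with the slide block Hba-a1 (-0.24), Hbb-bt (-0.13) and Chac1 (-0.11), and with the scanner software's ratio Hbb-bt (-0.32). With Cy5 alone they were Chac1 (-0.26) and Bax (-0.0803), with background outlier spots kept Chac1 (-0.30), and with normexp fitted on all spots Hbb-bt (-0.33), Hspb3 (-0.0862), Klk8 (-0.0345) and Mdm2 (0.0697). In the deposited values they were Chac1 (-1.77), Bax (-0.27) and Zfp36 (0.0817), and with scanner as a block there Chac1 (-1.83), Bax (-0.28), Rad50 (-0.0255) and Zfp36 (0.11). Leaving out 1 array gave a range of -0.19 to 0.25 for Chac1, -0.58 to 0.59 for Col1a1, -2.73 to 0.0114 for Krtap26-1 and -1.31 to 0.11 for Slc4a1. Signal over background limits dim probes, and 17863 of the 30323 probes tested were above background on all 8 arrays.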
